A study of Mus musculus with 24 samples.

Results

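Messenger RNA of 10 dual specificity phosphatase genes was followed in mouse bone marrow-derived macrophages treated with lipopolysaccharide (LPS), the catechol estrogen 4-hydroxyestrone (4-OHE1), or both. The genes, Dusp1, Dusp2, Dusp3, Dusp4, Dusp5, Dusp6, Dusp8, Dusp10, Dusp14 and Dusp16, were taken by gene symbol from deposited tables of 24537 genes. Each was found once at each time, with the same transcript at both. On mm10 the counted transcripts lie, on the plus strand, Dusp2 at chr2:127336159-127338377, Dusp4 at chr8:34807610-34819894, Dusp5 at chr19:53529318-53541322, Dusp6 at chr10:99263231-99267489 and Dusp10 at chr1:184034461-184075636. On the minus strand they lie Dusp1 at chr17:26505591-26508472, Dusp3 at chr11:101971144-101984791, Dusp8 at chr7:142079487-142095284, Dusp14 at chr11:84048045-84068357 and Dusp16 at chr6:134715468-134792628. The macrophages were grown in M-CSF from the leg bones of 8-week-old female C57BL/6J mice and plated for treatment on day 7. RNA was collected after 6 h or 24 h from 4 groups at each time, LPS+4-OHE1, 4-OHE1 alone, LPS alone and vehicle control (ethanol, as the column names give it). Each of the 8 groups had 3 libraries, 24 in all. The labels give 100 ng/mL LPS and 5 mM 4-OHE1 both as stock and as final concentration beside a 1 to 1000 dilution, so the doses that reached the cells are uncertain. The labels do not say whether the 3 libraries of a group came from different mice or wells. The p-values thus reflect only how far these libraries spread, which may be technical.

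Dual specificity phosphatases remove phosphate from both tyrosine and threonine, and most of these genes encode mitogen-activated protein (MAP) kinase phosphatases that switch off ERK, JNK or p38. Many are transcribed on activation of the kinases they later inactivate, which makes them negative feedback genes. In macrophages the best known is Dusp1, whose product restrains p38 and JNK after LPS and so limits cytokine production. Dusp1, Dusp2, Dusp4 and Dusp5 encode nuclear, inducible enzymes, and Dusp6 encodes a cytoplasmic enzyme selective for ERK. Dusp8, Dusp10 and Dusp16 encode enzymes that prefer JNK and p38. Dusp3 and Dusp14 encode small, atypical members without the docking domain of the others.

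Promoter windows of RefSeq (GRCm38.p6, the build of the tables, from 250 bases before to 50 bases after the gene start) were matched for 9 of the 10 genes, the other being Dusp4. Shown first are Dusp1 and Dusp8, at their highest in cells that received 4-OHE1 for 6 h, and then Dusp2 and Dusp16, at their highest with LPS alone. Sequences run 5′ to 3′ along the gene. Capitals mark the short core TGACG (or CGTCA on the other strand) of the cAMP response element, so that TGACGTCA, read in full, is the complete element.
Dusp1 (chr17:26508423-26508722, minus strand): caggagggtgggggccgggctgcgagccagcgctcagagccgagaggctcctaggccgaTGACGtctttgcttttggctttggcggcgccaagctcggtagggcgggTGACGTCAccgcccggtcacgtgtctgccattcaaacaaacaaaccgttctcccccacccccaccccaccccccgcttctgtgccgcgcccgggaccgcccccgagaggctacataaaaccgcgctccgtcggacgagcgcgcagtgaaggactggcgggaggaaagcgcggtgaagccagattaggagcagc
Dusp8 (chr7:142095235-142095534, minus strand): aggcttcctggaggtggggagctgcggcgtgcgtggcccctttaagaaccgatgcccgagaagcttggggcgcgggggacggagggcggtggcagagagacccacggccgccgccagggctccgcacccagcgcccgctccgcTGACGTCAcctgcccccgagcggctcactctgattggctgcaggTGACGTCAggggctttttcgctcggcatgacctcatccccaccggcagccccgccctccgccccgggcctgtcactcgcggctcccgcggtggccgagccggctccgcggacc
Dusp2 (chr2:127335909-127336208, plus strand): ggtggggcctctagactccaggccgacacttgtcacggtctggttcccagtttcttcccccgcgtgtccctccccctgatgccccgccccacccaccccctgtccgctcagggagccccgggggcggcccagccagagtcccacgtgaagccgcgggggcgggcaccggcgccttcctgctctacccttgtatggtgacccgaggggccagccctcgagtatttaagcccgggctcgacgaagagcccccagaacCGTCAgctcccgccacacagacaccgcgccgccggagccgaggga
Dusp16 (chr6:134792579-134792878, minus strand): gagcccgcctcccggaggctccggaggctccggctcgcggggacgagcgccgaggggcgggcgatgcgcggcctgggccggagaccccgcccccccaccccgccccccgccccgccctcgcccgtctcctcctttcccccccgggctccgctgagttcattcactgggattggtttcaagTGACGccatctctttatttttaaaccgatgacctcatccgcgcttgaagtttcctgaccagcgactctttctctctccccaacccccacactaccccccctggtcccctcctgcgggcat

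The complete element TGACGTCA was found once in the Dusp1 window, at -143 to -136 from the gene start, and in a pair in the Dusp8 window, at -107 to -100 and -63 to -56. It was in 2 of the 9 windows, against 1.79% of all 32851 windows of that length. The windows of Dusp5 and Dusp10, genes also at their highest in cells that received 4-OHE1 for 6 h, lacked it. The short core TGACG, which the complete element contains on each strand, was in 5 of the 9 (Dusp1, Dusp2, Dusp5, Dusp8 and Dusp16), against 20.8% of all windows. The AP-1 site TGANTCA, the TATA box TATAAA and the NF-kappaB consensus, searched on both strands, were in 0 of the 9 windows, against 7.81%, 13.6% and 5.80% of all windows. The antioxidant response element TGACNNNGC was in those of Dusp1, Dusp3 and Dusp5 (12.4% of all windows), and the E-box CACGTG in those of Dusp1 and Dusp2 (7.15%). The CArG box was in that of Dusp5 (1.63%), whose window, like that of Dusp10, begins at another start than the counted transcript. These are matches of letters and say nothing of binding.

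Libraries held between 8127155 and 13339193 reads, of which 7045387 to 11233882 fell in genes, and 1 read was worth 0.0147 FPKM (Dusp16, the longest counted transcript) to 0.107 FPKM (Dusp5, the shortest). FPKM is the fragment count divided by transcript length and sequencing depth, a level per length that can be compared between genes. All 8 macrophage markers were present at a summed 5497 to 15960 FPKM, and T cell, B cell and erythroid markers summed to at most 1.09, 2.03 and 0.539 FPKM. The sum of the 6 neutrophil markers ranged from 1.12 to 112 FPKM. S100a8, which stimulated macrophages also make, carried it with 81.4 to 112 FPKM in the LPS+4-OHE1 libraries at 24 h, 42.8 to 60.2 FPKM in LPS, 7.60 to 10.7 FPKM in 4-OHE1 and 2.33 to 3.06 FPKM in control libraries. Camp, an antimicrobial peptide gene on the same list, had 0.305 to 0.679 FPKM with LPS+4-OHE1 at 24 h, and with LPS 0.620 to 1.22 FPKM at 6 h and 3.83 to 6.81 FPKM at 24 h, and was at 0 in the other groups. Ly6g, Ngp, Mpo and Elane stayed at or under 0.267 FPKM. The 6 dendritic cell markers summed to 1.97 to 3.59 FPKM with LPS+4-OHE1, 0.530 to 1.11 with 4-OHE1, 1.74 to 2.56 with LPS and 0.229 to 0.436 FPKM in control libraries at 6 h. At 24 h they summed to 1.30 to 2.10 FPKM with LPS+4-OHE1, 0.528 to 0.686 with 4-OHE1, 5.39 to 6.46 with LPS and 0.034 to 0.251 FPKM in control libraries, with Ccr7 at 4.91 to 6.17 FPKM in LPS libraries. Xcr1 had 1.73 to 3.26 FPKM with LPS+4-OHE1 at 6 h. The 6 fibroblast markers summed to 1.95 to 5.18 FPKM over all libraries. The part of these markers in the results was not tested. On the first principal component of the 6 h libraries, which held 63.0% of their variance, LPS+4-OHE1 replicate 3 scored 4.27, against 19.4 and 18.3 for replicates 1 and 2. In these bulk samples fewer cells of a type and less RNA per cell cannot be told apart.

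Differences are log2 differences of (FPKM + 0.5) with their SE from limma, and a gene was called where the p, adjusted by Benjamini-Hochberg over all genes tested, was under 0.05, and the added 0.5 understates the change of low genes. The FPKM values carry no scaling between libraries, and LPS at 6 h shifted the median of all genes by -0.61. With median-of-ratios scaling this median was 0.03, and the split of that comparison over all genes moved to 4129 higher and 3761 lower, against 1792 higher and 7563 lower without it. In the other comparisons the medians without scaling lay between -0.31 and 0.34. For the 10 genes, scaled differences are given where a call, or the direction of a called difference, depended on this choice. Other genes named below, and the counts and medians of the gene lists, are given without scaling only, and their dependence on it was not tested. Shares of all genes are without scaling unless stated. All 10 genes passed the filter of 1 FPKM in 3 libraries, but Dusp8 and Dusp14 at both times, and Dusp10 at 24 h, reached 1 FPKM only in libraries that received 4-OHE1. Dusp10 at 6 h reached it in such libraries and otherwise only in control replicate 3 (1.08 FPKM), short of the 3 libraries required. For these genes at these times, passing the filter already required a high level with 4-OHE1.

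With 4-OHE1 alone for 6 h, 8 of the 10 genes rose over control (Dusp1, Dusp2, Dusp4, Dusp5, Dusp8, Dusp10, Dusp14 and Dusp16) and Dusp3 and Dusp6 fell. Over all 11098 genes tested, 20.9% were higher and 44.0% lower. The median difference of the 10 genes was 2.16, against -0.21 for all genes. With scaling, 3191 of 11010 genes tested were higher and 3475 lower. The 10 genes were chosen with earlier results of these data known. Here and below their counts and medians beside those of all genes are thus descriptive. Whether such genes responded more than others was not tested. With LPS alone for 6 h, Dusp1, Dusp2, Dusp8 and Dusp16 rose and Dusp3, Dusp5, Dusp6 and Dusp10 fell, which is 4 and 4 of the 10, beside 16.1% higher and 68.1% lower among all genes. The medians were 0.04 for the 10 genes and -0.61 for all genes. These comparisons share their 3 control libraries.

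When 4-OHE1 was added to LPS for 6 h, 7 genes were higher than with LPS alone (Dusp1, Dusp3, Dusp4, Dusp5, Dusp8, Dusp10 and Dusp14), and Dusp2 and Dusp16, the pair led by LPS, were lower. Among all genes 42.7% were higher and 25.3% lower, and the medians were 1.41 for the 10 genes and 0.18 for all. When LPS was added to 4-OHE1, 0 of the 10 genes were called higher and 3 lower (Dusp3, Dusp4 and Dusp6), beside 10.1% higher and 50.2% lower among all genes. At an unadjusted p under 0.05 limma called 0 higher, and limma voom on recovered reads called 3 (Dusp1, Dusp2 and Dusp8) at an adjusted p under 0.05. At the same threshold, scaling left Dusp4 alone of the 3 lower genes and called Dusp1 and Dusp8 higher. Over all 11010 genes tested with scaling, 2314 were higher and 2003 lower. Without LPS+4-OHE1 replicate 3 the unscaled count of lower genes among the 10 was 5 in place of 3. Dusp5 (-0.33, adjusted p = 0.0326) and Dusp16 (-0.30, adjusted p = 0.0179) were added. The plot of levels by library shows each gene at both times.

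**Figure D1:**
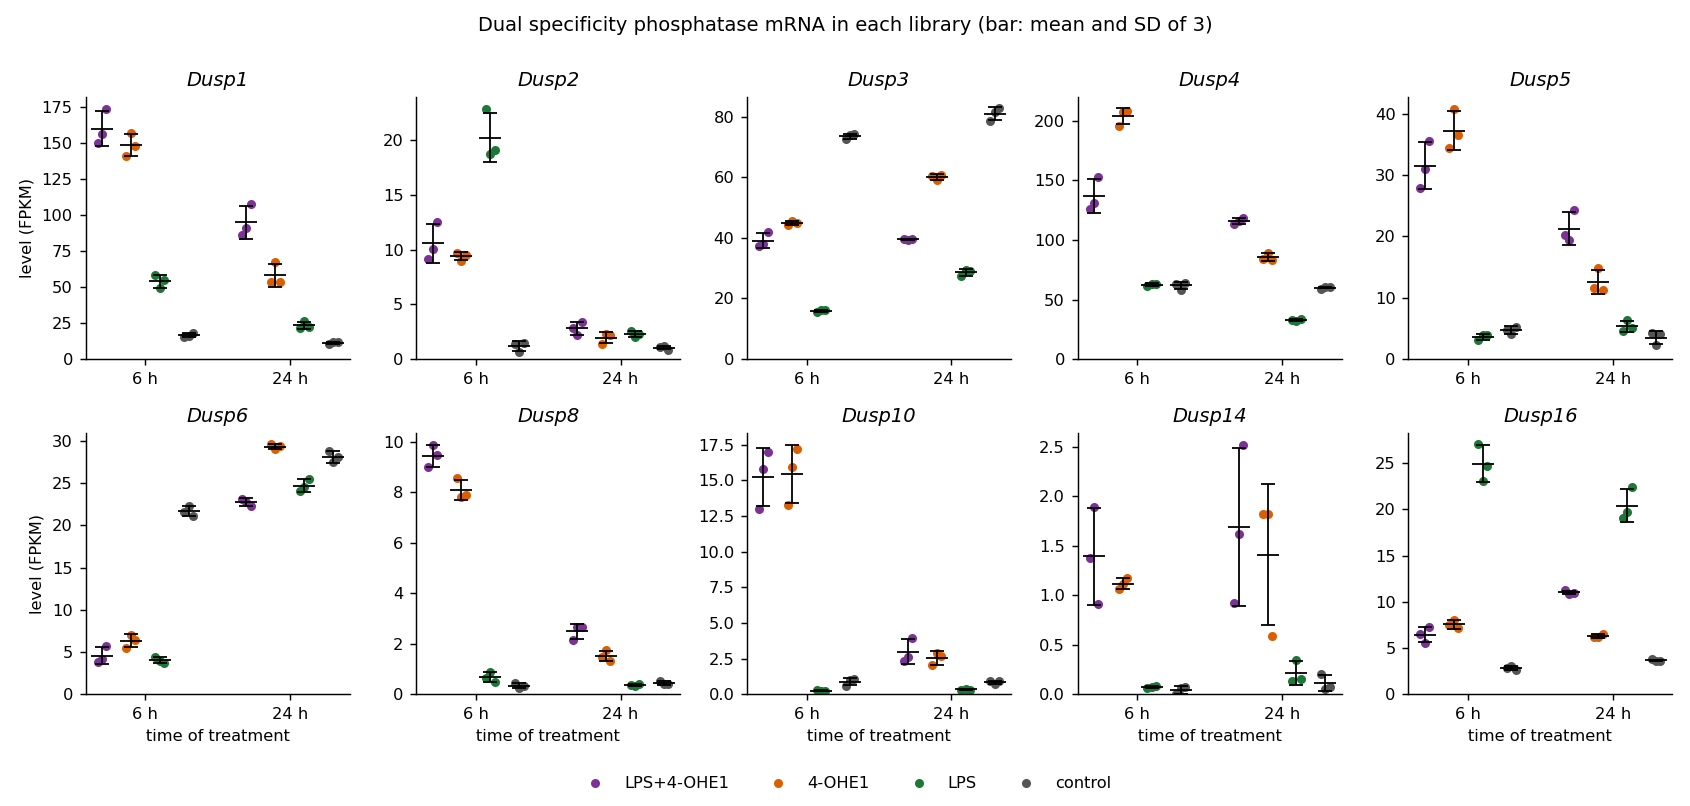
Level in FPKM (vertical axis, linear, from 0) of each gene in each of the 24 libraries, by treatment (colour) and time; points are libraries and black marks the mean and SD of 3. Dusp2 and Dusp16 were highest with LPS alone at 6 h (means 20.2 and 24.9 FPKM), whereas Dusp3 was highest in control libraries.

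Dusp1, the nuclear phosphatase of p38 and JNK, stood at 150.3, 156 and 174 FPKM in LPS+4-OHE1 libraries and at 141, 157 and 148 FPKM in 4-OHE1 libraries at 6 h. It stood at 58.1, 49.1 and 54.7 FPKM in LPS libraries and at 15.6, 16.3 and 18.4 FPKM in control libraries. The libraries with 4-OHE1 were thus all above those with LPS alone, and these all above control, while LPS+4-OHE1 and 4-OHE1 overlapped. The difference from control was 3.11 ± 0.08 with 4-OHE1 (adjusted p = 3.00e-11) and 1.66 ± 0.08 with LPS (adjusted p = 1.56e-09). LPS+4-OHE1 was above LPS by 1.56 ± 0.08 (adjusted p = 4.44e-09). Its difference from 4-OHE1 alone was 0.10 ± 0.08 (adjusted p = 0.292), and 0.39 after scaling (adjusted p = 0.00107).

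Dusp2, which encodes a nuclear phosphatase of activated leukocytes, had 9.10, 10.0 and 12.6 FPKM in LPS+4-OHE1 libraries and 9.73, 9.01 and 9.55 FPKM in 4-OHE1 libraries. It had 22.8, 18.8 and 19.1 FPKM in LPS libraries and 1.41, 0.648 and 1.47 FPKM in control libraries. LPS alone therefore gave the highest values, with no overlap with any other group. The difference from control was 3.67 ± 0.18 with LPS (adjusted p = 1.52e-09) and 2.61 ± 0.18 with 4-OHE1 (adjusted p = 1.17e-07). LPS+4-OHE1 lay below LPS by -0.91 ± 0.18 (adjusted p = 0.000733).

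Dusp4 encodes another nuclear phosphatase, of ERK and JNK, and was the most abundant of the 10 genes with 4-OHE1 alone. It had 126, 131 and 153 FPKM in LPS+4-OHE1 libraries and 196, 208 and 208 FPKM in 4-OHE1 libraries. In LPS libraries it had 61.0, 63.1 and 63.4 FPKM and in control libraries 63.0, 58.1 and 64.2 FPKM, which overlapped. The difference of 4-OHE1 from control was 1.72 ± 0.07 (adjusted p = 1.09e-09). That of LPS from control was 0.02 ± 0.07 (adjusted p = 0.830), but 0.71 after scaling (adjusted p = 1.84e-07), so whether Dusp4 responded to LPS at 6 h depended on the scaling. LPS+4-OHE1 was above LPS by 1.12 ± 0.07 (adjusted p = 2.21e-08) and below 4-OHE1 by -0.58 ± 0.07 (adjusted p = 3.21e-05).

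Dusp5, the nuclear phosphatase specific for ERK, had 27.9, 31.1 and 35.6 FPKM in LPS+4-OHE1 libraries and 34.4, 40.8 and 36.5 FPKM in 4-OHE1 libraries. It had 3.12, 3.85 and 3.96 FPKM in LPS libraries and 4.79, 4.13 and 5.29 FPKM in control libraries. Every library with 4-OHE1 was thus several times above every library without it. Dusp5 rose with 4-OHE1 by 2.85 ± 0.12 over control (adjusted p = 1.09e-09) and with LPS+4-OHE1 by 2.95 ± 0.12 over LPS (adjusted p = 2.89e-10). Against control, LPS gave -0.34 ± 0.12 (adjusted p = 0.0167) without scaling and 0.29 with it (adjusted p = 0.0317), called in opposite directions. Without control replicate 3 or LPS replicate 1 the unscaled call was lost (-0.26 and -0.25). The annotation (GENCODE vM21, GRCm38) places an antisense gene over 22.1% of the exon bases of Dusp5, and another over 12.9% of those of Dusp3. These are shares of the exons of all annotated transcripts together, and those of the counted transcripts were not computed. No source used here states that the counting used strand, so reads of such partners could not be told apart.

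Dusp6, the cytoplasmic ERK phosphatase and a classical feedback target of ERK signalling, moved the other way. It had 3.90, 4.15 and 5.77 FPKM in LPS+4-OHE1 libraries and 5.54, 7.05 and 6.46 FPKM in 4-OHE1 libraries. It had 4.48, 3.98 and 3.77 FPKM in LPS libraries and 21.6, 22.3 and 21.1 FPKM in control libraries. All 9 treated libraries were below all control libraries. Dusp6 fell by 2.28 ± 0.13 with LPS (adjusted p = 4.73e-09) and by 1.70 ± 0.13 with 4-OHE1 (adjusted p = 2.26e-07). LPS+4-OHE1 differed from LPS by 0.14 ± 0.13 (adjusted p = 0.339). Its difference from 4-OHE1 was -0.44 ± 0.13 (adjusted p = 0.0114) and, after scaling, -0.17 (adjusted p = 0.255). Without 4-OHE1 replicate 2 it was -0.36 (adjusted p = 0.0512).

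Of the genes for JNK and p38 phosphatases, Dusp8 and Dusp10 were low without 4-OHE1. Dusp8 had 8.99, 9.86 and 9.47 FPKM in LPS+4-OHE1 libraries and 8.55, 7.80 and 7.89 FPKM in 4-OHE1 libraries. It had 0.669, 0.898 and 0.498 FPKM in LPS libraries and 0.439, 0.257 and 0.351 FPKM in control libraries. The 4 groups did not overlap. Dusp8 rose by 3.34 ± 0.13 with 4-OHE1 over control (adjusted p = 6.79e-10), by 3.08 ± 0.13 with LPS+4-OHE1 over LPS (adjusted p = 4.99e-10) and by 0.48 ± 0.13 with LPS over control (adjusted p = 0.00406). LPS+4-OHE1 differed from 4-OHE1 by 0.21 ± 0.13 (adjusted p = 0.172), and by 0.49 after scaling (adjusted p = 0.0118).

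Dusp10 had 13.0, 15.8 and 17.0 FPKM in LPS+4-OHE1 libraries and 13.3, 15.9 and 17.2 FPKM in 4-OHE1 libraries. It had 0.340, 0.228 and 0.265 FPKM in LPS libraries and 0.614, 0.982 and 1.08 FPKM in control libraries. The groups with 4-OHE1 overlapped, and LPS lay below control in every library. Dusp10 rose with 4-OHE1 by 3.53 ± 0.15 over control (adjusted p = 1.56e-09). With LPS it was lower than control by -0.83 ± 0.15 (adjusted p = 0.000222), from 22 reads in the LPS libraries and 76 in the control libraries. That call was lost with voom (-0.87, adjusted p = 0.0940), and in the authors' deposited table the value was -0.98 (adjusted p = 0.0975). With LPS+4-OHE1 Dusp10 exceeded LPS by 4.33 ± 0.15 (adjusted p = 1.02e-10), at a ratio of means of 54.9. This was the largest of 40 differences at 6 h, those of each agent from control and of both agents from each alone. LPS against 4-OHE1 and LPS+4-OHE1 against control were not among them.

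Dusp16, the third of the JNK and p38 group, was instead led by LPS. It had 6.51, 5.61 and 7.27 FPKM in LPS+4-OHE1 libraries and 7.55, 8.08 and 7.13 FPKM in 4-OHE1 libraries. It had 27.1, 23.1 and 24.7 FPKM in LPS libraries and 2.81, 3.07 and 2.67 FPKM in control libraries. LPS libraries stood alone at the top, and those with both agents at the level of 4-OHE1 alone, which they overlapped. Dusp16 rose by 2.92 ± 0.10 with LPS (adjusted p = 4.97e-11) and by 1.27 ± 0.10 with 4-OHE1 (adjusted p = 2.96e-07). LPS+4-OHE1 lay below LPS by -1.87 ± 0.10 (adjusted p = 4.24e-09).

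Among the atypical members, Dusp3 fell with each agent. It had 37.4, 37.9 and 41.9 FPKM in LPS+4-OHE1 libraries and 44.4, 45.7 and 44.8 FPKM in 4-OHE1 libraries. It had 15.7, 16.0 and 16.3 FPKM in LPS libraries and 72.6, 73.8 and 74.2 FPKM in control libraries. The 4 groups did not overlap, with LPS alone lowest. Dusp3 fell by 2.17 ± 0.05 with LPS (adjusted p = 3.75e-12) and by 0.70 ± 0.05 with 4-OHE1 (adjusted p = 2.50e-07), and LPS+4-OHE1 was above LPS by 1.26 ± 0.05 (adjusted p = 5.77e-10). LPS+4-OHE1 was below 4-OHE1 by -0.20 ± 0.05 (adjusted p = 0.00641), but scaling gave 0.08 (adjusted p = 0.188).

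Dusp14, the other atypical member, was measured by few reads. At 6 h it had 1.38, 1.89 and 0.912 FPKM in LPS+4-OHE1 libraries and 1.07, 1.11 and 1.17 FPKM in 4-OHE1 libraries, and at most 0.083 FPKM in any LPS or control library. It rose by 1.56 ± 0.18 with 4-OHE1 over control (adjusted p = 1.07e-05) and by 1.69 ± 0.18 with LPS+4-OHE1 over LPS (adjusted p = 3.87e-06). The 4-OHE1 libraries held 43 reads and the control libraries 2, a ratio per depth of 26.3 with an exact 95% interval of 6.85 to 224. The LPS+4-OHE1 libraries held 61 and the LPS libraries 3, a ratio of 19.1 (6.24 to 95.2). These intervals cover counting error only. Without 4-OHE1 the gene was close to undetected.

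**Figure D2:**
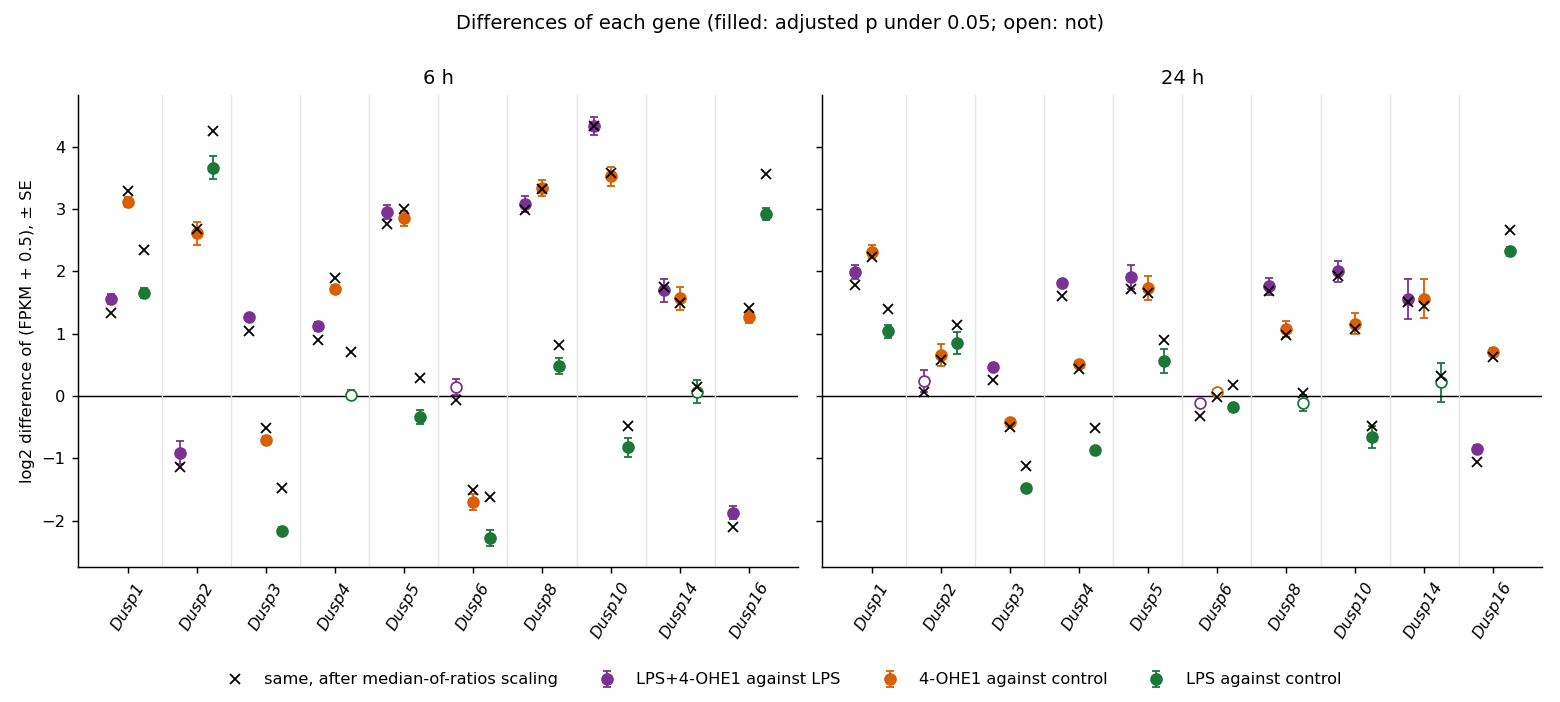
Log2 difference of (FPKM + 0.5), with its SE, of each gene in 3 comparisons at 6 h (left) and 24 h (right); filled points passed the adjusted p threshold, open points did not, and crosses show the difference after median-of-ratios scaling. Dusp1, Dusp5, Dusp8, Dusp10 and Dusp14 were above 1.5 in both comparisons that add 4-OHE1 at 6 h, and only Dusp2 and Dusp16 were below 0 for LPS+4-OHE1 against LPS at 6 h without scaling.

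At 24 h, 4-OHE1 alone still held 8 of the 10 genes above control, the 8 that rose at 6 h, and Dusp3 was lower. Over all 11185 genes tested, 29.9% were higher and 23.1% lower, and the medians were 0.89 for the 10 genes and 0.05 for all. With LPS, Dusp1, Dusp2, Dusp5 and Dusp16 were higher and Dusp3, Dusp4, Dusp6 and Dusp10 lower, 4 and 4 of the 10 beside 19.9% and 53.5% of all genes. LPS+4-OHE1 exceeded LPS in 7 genes, those of 6 h, and was lower in Dusp16 (39.5% of all genes higher, 14.9% lower). It exceeded 4-OHE1 alone in 5 genes (Dusp1, Dusp4, Dusp5, Dusp8 and Dusp16) and was lower in Dusp3 and Dusp6, beside 12% higher and 44.3% lower among all genes. With scaling Dusp2 was higher too, beside 2594 higher and 2398 lower of 11145 genes tested.

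Dusp1 had 85.9, 91.3 and 108 FPKM in LPS+4-OHE1 libraries and 53.3, 67.2 and 53.7 FPKM in 4-OHE1 libraries at 24 h. It had 21.9, 26.2 and 22.5 FPKM in LPS libraries and 10.4, 11.5 and 11.7 FPKM in control libraries. The 4 groups were now fully apart. The difference from control was 2.32 ± 0.11 with 4-OHE1 (adjusted p = 8.79e-09) and 1.04 ± 0.11 with LPS (adjusted p = 2.12e-06). LPS+4-OHE1 exceeded LPS by 1.99 ± 0.11 (adjusted p = 1.60e-08) and 4-OHE1 by 0.71 ± 0.11 (adjusted p = 0.000150).

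Dusp4 had 113, 116 and 119 FPKM in LPS+4-OHE1 libraries and 84.3, 89.5 and 83.4 FPKM in 4-OHE1 libraries. It had 32.4, 31.8 and 33.6 FPKM in LPS libraries and 59.2, 60.2 and 60.7 FPKM in control libraries. LPS alone was now the lowest group, and LPS+4-OHE1 the highest. The difference from control was -0.87 ± 0.05 with LPS (adjusted p = 2.63e-09) and 0.51 ± 0.05 with 4-OHE1 (adjusted p = 1.81e-06). LPS+4-OHE1 exceeded LPS by 1.82 ± 0.05 (adjusted p = 3.50e-11) and 4-OHE1 by 0.44 ± 0.05 (adjusted p = 5.90e-06).

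Dusp5 had 20.2, 19.3 and 24.3 FPKM in LPS+4-OHE1 libraries and 11.5, 14.9 and 11.3 FPKM in 4-OHE1 libraries. It had 4.54, 6.36 and 5.04 FPKM in LPS libraries and 4.17, 2.30 and 4.03 FPKM in control libraries, each group apart from the next. The difference from control was 1.73 ± 0.19 with 4-OHE1 (adjusted p = 1.03e-05) and 0.57 ± 0.19 with LPS (adjusted p = 0.0172). The LPS call was lost without control replicate 2 (0.33) or LPS replicate 2 (0.44). LPS+4-OHE1 exceeded LPS by 1.91 ± 0.19 (adjusted p = 3.46e-06) and 4-OHE1 by 0.74 ± 0.19 (adjusted p = 0.00551). Dusp2 was low in all groups by then, at 2.20 to 3.37 FPKM in LPS+4-OHE1, 1.41 to 2.33 in 4-OHE1, 2.04 to 2.56 in LPS and 0.868 to 1.16 FPKM in control libraries. It remained above control by 0.85 ± 0.17 with LPS (adjusted p = 0.000724) and by 0.65 ± 0.17 with 4-OHE1 (adjusted p = 0.00687), where the authors' deposited table has 0.84 (adjusted p = 0.0601). LPS+4-OHE1 differed from 4-OHE1 by 0.43 ± 0.17 (adjusted p = 0.0510), and by 0.62 after scaling (adjusted p = 0.0116). Without replicate 2 of either of these groups that difference was called (0.57 and 0.54).

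Dusp6 had 23.2, 22.8 and 22.3 FPKM in LPS+4-OHE1 libraries and 29.7, 29.0 and 29.3 FPKM in 4-OHE1 libraries at 24 h. It had 24.0, 24.6 and 25.5 FPKM in LPS libraries and 28.8, 27.5 and 28.0 FPKM in control libraries. The groups thus lay within a narrow range, although they did not overlap. The difference of 4-OHE1 from control was 0.06 ± 0.05 (adjusted p = 0.298). That of LPS from control was -0.18 ± 0.05 (adjusted p = 0.00346) without scaling and 0.18 with it (adjusted p = 0.00453), called in opposite directions. LPS+4-OHE1 differed from LPS by -0.12 ± 0.05 (adjusted p = 0.0513) and, after scaling, by -0.32 (adjusted p = 8.97e-05).

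Dusp16 was again highest with LPS and lowest in control libraries at 24 h, and both agents together now stood above 4-OHE1 alone. It had 11.3, 10.9 and 11.0 FPKM in LPS+4-OHE1 libraries and 6.24, 6.18 and 6.54 FPKM in 4-OHE1 libraries. It had 19.1, 19.7 and 22.4 FPKM in LPS libraries and 3.79, 3.61 and 3.63 FPKM in control libraries. No groups overlapped. The difference from control was 2.32 ± 0.07 with LPS (adjusted p = 1.51e-11) and 0.71 ± 0.07 with 4-OHE1 (adjusted p = 3.71e-06). LPS+4-OHE1 lay below LPS by -0.86 ± 0.07 (adjusted p = 5.07e-07) and above 4-OHE1 by 0.76 ± 0.07 (adjusted p = 1.75e-06).

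Dusp8 ranged from 2.15 to 2.68 FPKM in LPS+4-OHE1 libraries, from 1.34 to 1.75 in 4-OHE1, from 0.350 to 0.425 in LPS and from 0.403 to 0.545 FPKM in control libraries. It exceeded control with 4-OHE1 by 1.07 ± 0.13 (adjusted p = 3.00e-05), and LPS differed from control by -0.11 ± 0.13 (adjusted p = 0.456). Dusp10 ranged from 2.34 to 3.98 FPKM in LPS+4-OHE1 libraries, from 2.03 to 2.93 in 4-OHE1, from 0.334 to 0.404 in LPS and from 0.725 to 0.942 FPKM in control libraries. Both genes therefore still separated the libraries with 4-OHE1 from those without, at lower levels than at 6 h. At 24 h both passed the filter only through the libraries with 4-OHE1, so a high level there was a condition of being tested. Dusp10 exceeded control with 4-OHE1 by 1.16 ± 0.18 (adjusted p = 0.000136) and was lower with LPS by -0.66 ± 0.18 (adjusted p = 0.00432). The LPS call was lost with voom (-0.88, adjusted p = 0.0608), and the authors' deposited table has -0.90 (adjusted p = 0.0910).

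Dusp3 had 39.6, 39.3 and 39.7 FPKM in LPS+4-OHE1 libraries and 60.4, 59.1 and 60.9 FPKM in 4-OHE1 libraries at 24 h. It had 27.3, 29.4 and 29.1 FPKM in LPS libraries and 78.6, 81.5 and 82.8 FPKM in control libraries. The order of the groups was that of 6 h and no groups overlapped. It fell by 1.49 ± 0.05 with LPS (adjusted p = 1.91e-11) and by 0.43 ± 0.05 with 4-OHE1 (adjusted p = 8.09e-06). Dusp14 had 0.924, 1.62 and 2.52 FPKM in LPS+4-OHE1 libraries, 1.82, 1.82 and 0.589 FPKM in 4-OHE1 libraries and at most 0.351 FPKM in the others. It exceeded control with 4-OHE1 by 1.56 ± 0.32 (adjusted p = 0.00131), with 72 reads in the 4-OHE1 libraries and 6 in control. Like Dusp8 and Dusp10, Dusp14 passed the filter at 24 h only through the libraries with 4-OHE1.

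The interaction asks whether LPS changed a gene differently in cells that also received 4-OHE1, as the LPS+4-OHE1 minus 4-OHE1 difference minus the LPS minus control difference. At 6 h it was called for 7 genes, higher in Dusp3, Dusp6 and Dusp10 and lower in Dusp1, Dusp2, Dusp4 and Dusp16, beside 45.5% higher and 15.2% lower among all genes. With scaling the same 7 were called, beside 2739 higher and 3206 lower of 11010 genes tested. With voom Dusp10 was not called (1.12, adjusted p = 0.0515) and Dusp8 was called lower (-1.12, adjusted p = 0.00395). The lowest values were those of Dusp2 (-3.52 ± 0.26, adjusted p = 2.61e-07) and Dusp16 (-3.14 ± 0.14, adjusted p = 5.05e-09). For Dusp2, LPS gave 0.15 ± 0.18 in cells with 4-OHE1 (adjusted p = 0.509), against 3.67 ± 0.18 in cells without it. For Dusp16 it gave -0.22 ± 0.10 with 4-OHE1 (adjusted p = 0.0711), against 2.92 ± 0.10 without it. For Dusp1 the interaction was -1.55 ± 0.12 (adjusted p = 3.28e-07). The falls of Dusp3 and Dusp6 with LPS were smaller in cells with 4-OHE1, with interactions of 1.96 ± 0.08 (adjusted p = 1.78e-09) and 1.84 ± 0.18 (adjusted p = 3.24e-06). After scaling, LPS in cells with 4-OHE1 gave 0.08 for Dusp3 (adjusted p = 0.188) and -0.17 for Dusp6 (adjusted p = 0.255). Neither was then called a fall, and both interactions were still called higher.

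At 24 h the interaction was higher in Dusp3, Dusp4, Dusp8 and Dusp10 and lower in Dusp6 and Dusp16, 4 and 2 of the 10, beside 27.6% higher and 15.7% lower among all genes. Dusp4 showed 1.30 ± 0.06 (adjusted p = 2.35e-08), since LPS gave 0.44 ± 0.05 in cells with 4-OHE1 and -0.87 ± 0.05 in cells without it. At 6 h its interaction had been of the other sign, -0.60 ± 0.10 (adjusted p = 0.000231). For Dusp16 the 24 h value was -1.56 ± 0.10 (adjusted p = 1.05e-07). The call of Dusp6 (-0.18 ± 0.07, adjusted p = 0.0469) was lost when any of 11 of the 12 libraries was left out (all but LPS replicate 1), with values of -0.15 to -0.20, and the count of lower genes was then 1. The exception was LPS+4-OHE1 replicate 3, without which Dusp1 was called lower in its place (-0.42, adjusted p = 0.0399). With scaling Dusp1 was also called lower, at -0.45 (adjusted p = 0.0239), against -0.33 ± 0.15 without it (adjusted p = 0.104). The change of the interaction between the times was not tested.

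**Figure D3:**
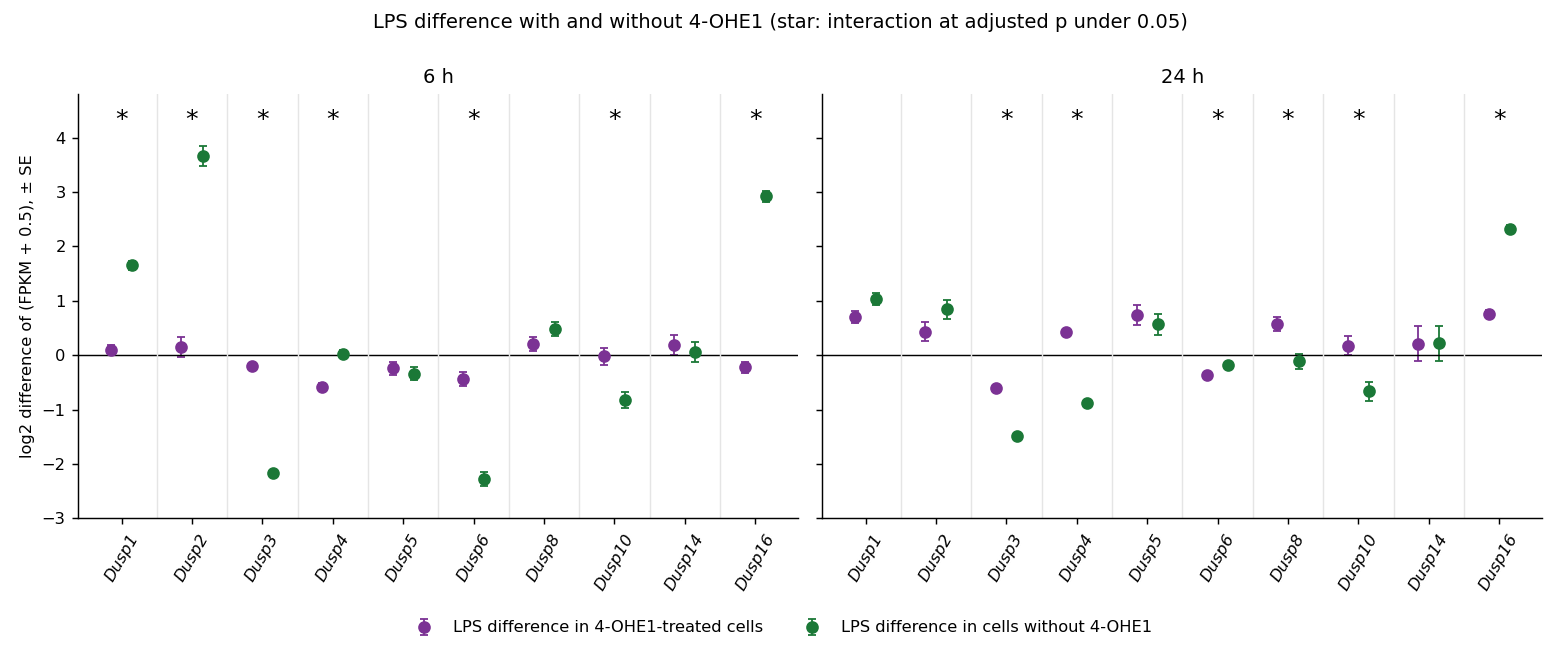
Log2 difference made by LPS, with its SE, in cells with 4-OHE1 (purple, left of each pair) and without it (green), at 6 h (left) and 24 h (right); stars mark a called interaction. At 6 h the green points of Dusp2 and Dusp16 stand at 3.67 and 2.92 and the purple points near 0.

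Each treatment was also compared between the times. In control libraries Dusp6 and Dusp16 were higher at 24 h and Dusp1 lower, beside 2.37% higher and 2.37% lower among all 11220 genes tested. The calls of Dusp6 (0.37 ± 0.10, adjusted p = 0.0322) and Dusp16 (0.32 ± 0.08, adjusted p = 0.0284) did not hold without every library. That of Dusp6 was lost without any 1 of the 6 control libraries (0.35 to 0.39) and that of Dusp16 without any 1 of 5 of them (0.28 to 0.33), all but replicate 2 of 6 h. Without LPS+4-OHE1 replicate 3 of 6 h, which shares in the estimate of the spread, Dusp3 was called too (0.14, adjusted p = 0.0310). With all libraries Dusp3 gave 0.14 ± 0.05 (adjusted p = 0.0898), and 0.16 with scaling (adjusted p = 0.0195). Dusp1 averaged 11.2 ± 0.71 FPKM at 24 h and 16.8 ± 1.49 FPKM at 6 h in control libraries (SD, n = 3 each), a difference of -0.56 ± 0.10 (adjusted p = 0.00188). With LPS, Dusp3, Dusp5 and Dusp6 were higher at 24 h and 5 genes lower, beside 47.6% and 20.8% of all genes. The call of Dusp5 (0.48 ± 0.17, adjusted p = 0.0149) was lost with scaling (0.21, adjusted p = 0.251), without LPS replicate 2 of 24 h (0.36) and without LPS replicate 1 of 6 h (0.39). That of Dusp8 was lost without LPS replicate 2 of 6 h (-0.29, adjusted p = 0.0509). Dusp2 fell most, to 2.28 ± 0.26 FPKM at 24 h against 20.2 ± 2.26 FPKM at 6 h (difference -2.90 ± 0.19, adjusted p = 2.05e-11).

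With 4-OHE1, 7 genes were lower at 24 h and Dusp3 and Dusp6 higher, beside 21.2% lower and 44.2% higher among all genes. Dusp10 averaged 2.56 ± 0.47 FPKM at 24 h and 15.5 ± 2.02 FPKM at 6 h (difference -2.39 ± 0.17, adjusted p = 1.20e-10). Dusp8 averaged 1.52 ± 0.21 FPKM at 24 h and 8.08 ± 0.41 FPKM at 6 h (difference -2.09 ± 0.12, adjusted p = 1.08e-11). The call of Dusp16 with 4-OHE1 was lost without replicate 2 of 6 h (-0.20, adjusted p = 0.0681). With LPS+4-OHE1, 6 genes were lower and Dusp6 and Dusp16 higher, beside 23.8% lower and 47.9% higher among all genes. Dusp16 averaged 11.0 ± 0.20 FPKM at 24 h and 6.46 ± 0.83 FPKM at 6 h with both agents, a difference of 0.73 ± 0.08 (adjusted p = 1.15e-07). Dusp6 was higher at 24 h in all 3 treated groups, with differences of 2.46 ± 0.10 with LPS, 2.13 ± 0.10 with 4-OHE1 and 2.20 ± 0.10 with both (adjusted p = 1.43e-14, 2.31e-13 and 8.30e-14). Dusp3 with both agents gave 0.02 ± 0.05 (adjusted p = 0.730), and -0.26 with scaling (adjusted p = 5.87e-06). Dusp14 did not pass the threshold in any of the 4 treatments, with differences of 0.16 to 0.31.

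**Figure D4:**
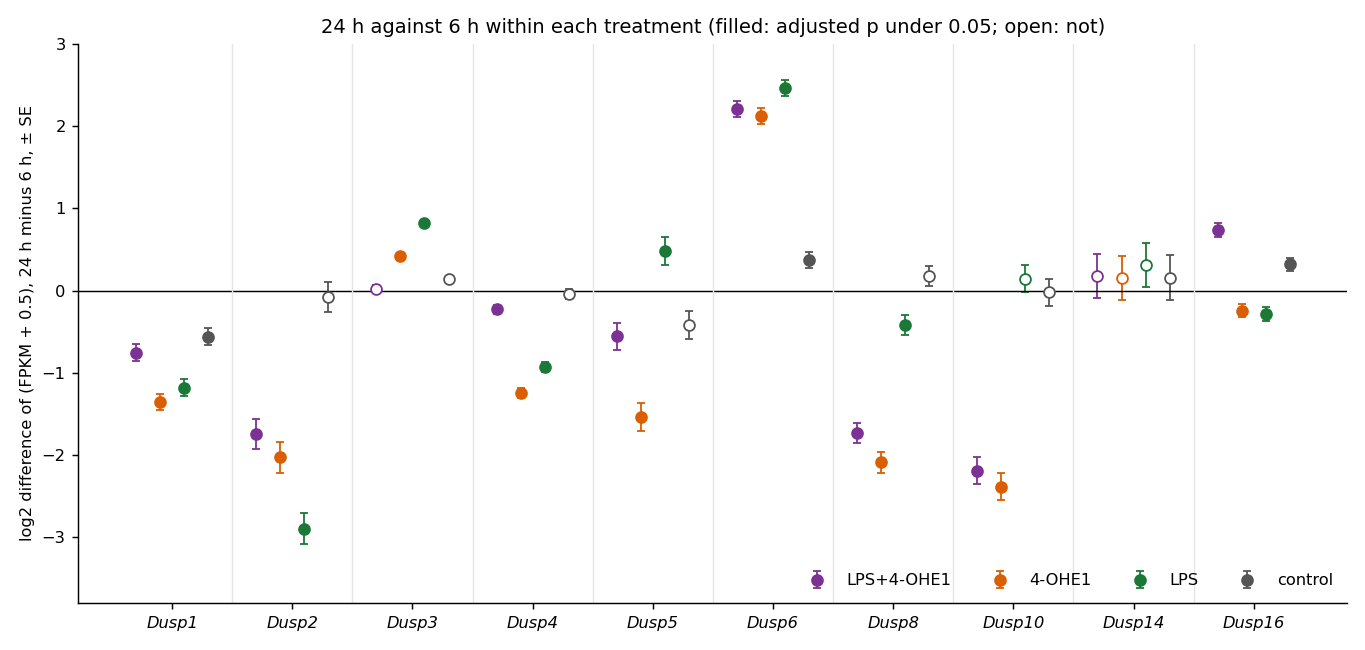
Log2 difference of (FPKM + 0.5) at 24 h minus 6 h, with its SE, within each treatment; filled points passed the adjusted p threshold and open points did not. Dusp6 lies above 2 in the 3 treated groups, and Dusp2, Dusp8 and Dusp10 lie below -1.5 in both groups with 4-OHE1.

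Summed over the 10 genes, the level at 6 h was 415 ± 37.7 FPKM with LPS+4-OHE1, 483 ± 19.6 FPKM with 4-OHE1, 186 ± 7.10 FPKM with LPS and 184 ± 4.71 FPKM in control libraries (SD, n = 3 each). The groups with 4-OHE1 did not overlap those without it. Without scaling the LPS sums overlapped those of control. With median-of-ratios scaling before summing, an alternative chosen after seeing the data, the sums at 6 h were 454 ± 20.8 with LPS+4-OHE1, 434 ± 19.2 with 4-OHE1, 239 ± 7.54 with LPS and 145 ± 2.40 in control libraries. The scaled sums with LPS did not overlap control, and those with LPS+4-OHE1 overlapped those with 4-OHE1. The makeup within a library does not depend on scaling. In LPS libraries Dusp3 held 8.60% ± 0.45 of the sum and Dusp16 13.4% ± 0.58, against 40.0% ± 0.94 and 1.55% ± 0.15 in control libraries. Dusp1 held 38.6% ± 0.55 with LPS+4-OHE1, 30.8% ± 0.53 with 4-OHE1, 28.9% ± 1.35 with LPS and 9.12% ± 0.62 in control libraries. At 24 h the sum was 316 ± 18.2 FPKM with LPS+4-OHE1, 260 ± 13.0 FPKM with 4-OHE1, 138 ± 4.90 FPKM with LPS and 190 ± 2.78 FPKM in control libraries, so LPS alone was then the lowest. With scaling it was 325 ± 16.9 with LPS+4-OHE1, 227 ± 9.74 with 4-OHE1, 165 ± 3.54 with LPS and 176 ± 2.65 in control libraries.

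**Figure D5:**
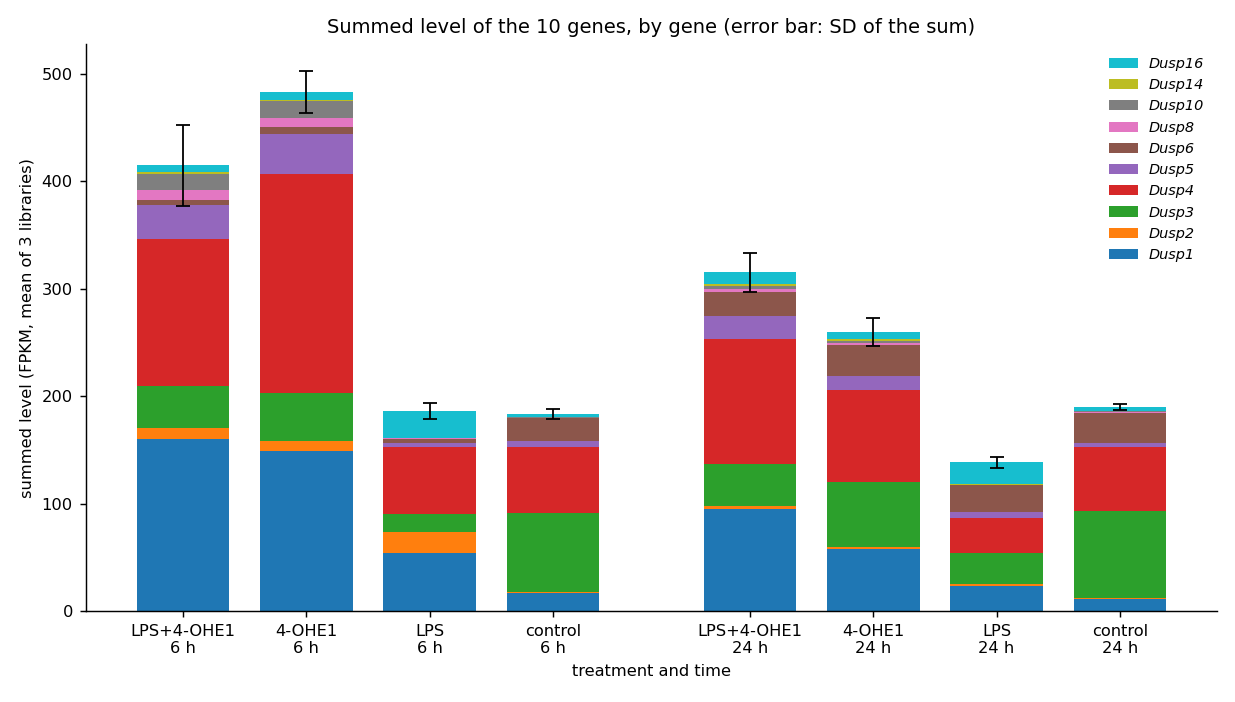
Mean level in FPKM of the 10 genes stacked by gene (linear axis from 0), for each treatment at 6 h (left) and 24 h (right); the error bar is the SD of the summed level over 3 libraries. The sums at 6 h were 415 FPKM with LPS+4-OHE1, 483 with 4-OHE1, 186 with LPS and 184 in control libraries without scaling, and Dusp1, Dusp3 and Dusp4 made up most of each.

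Of 18 other genes of the superfamily 12 were tested. With 4-OHE1 at 6 h 2 were higher and 3 lower than control (median -0.21, as for all genes), and with LPS 1 was higher and 10 lower (median -0.99, against -0.61 for all genes). Among all genes tested 20.9% were higher and 44.0% lower with 4-OHE1, and 16.1% higher and 68.1% lower with LPS. Dusp7 and Dusp9, which encode the other cytoplasmic phosphatases of ERK, fell with LPS by 2.21 ± 0.11 (adjusted p = 2.01e-09) and 1.93 ± 0.13 (adjusted p = 3.12e-08). Dusp7 averaged 9.46 ± 0.43 FPKM with 4-OHE1, 5.85 ± 0.10 FPKM with LPS and 29.0 ± 2.88 FPKM in control libraries. It also fell with 4-OHE1, by 1.56 ± 0.11 (adjusted p = 1.65e-07). Dusp13, an atypical member, rose with 4-OHE1 by 3.26 ± 0.22 (adjusted p = 7.81e-08), to 10.4 ± 2.53 FPKM against 0.633 ± 0.21 FPKM in control libraries. The control libraries held 21 reads of it. At 6 h Dusp13 reached at most 0.847 FPKM in control and 0.346 FPKM in LPS libraries. It thus passed the filter only through libraries with 4-OHE1, and a high level there was a condition of being tested. At 24 h LPS raised 1 of the 12 and lowered 8, beside 19.9% and 53.5% of all genes, and 4-OHE1 raised 6 and lowered 1, beside 29.9% and 23.1%. LPS+4-OHE1 against LPS gave 6 higher and 2 lower at 6 h, beside 42.7% and 25.3% of all genes, with a median of 0.25 against 0.18 for all genes.

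Of the MAP kinases themselves, 9 of 14 were tested. With 4-OHE1 at 6 h 3 were higher and 4 lower, and with LPS 1 was higher and 7 lower (medians -0.23 and -0.33). The shares over all genes were 20.9% higher and 44.0% lower with 4-OHE1 and 16.1% higher and 68.1% lower with LPS, with medians of -0.21 and -0.61, so the shares of MAP kinases called lower lay near those of all genes. Mapk14, the main p38 kinase, had 24.8 ± 0.74 FPKM with 4-OHE1 and 48.1 ± 0.95 FPKM in control libraries, a difference of -0.95 ± 0.05 (adjusted p = 1.95e-08). Among the 7 MAP kinase kinases, 4 were higher and 1 lower with 4-OHE1 at 6 h, and 2 higher and 4 lower with LPS (medians 0.26 and -0.31). Map2k3, an activator of p38, rose by 0.80 ± 0.10 with 4-OHE1 (adjusted p = 1.77e-05) and fell by 1.04 ± 0.10 with LPS (adjusted p = 6.68e-07). Of the 14 kinases above them, 3 rose and 5 fell with 4-OHE1, and 2 rose and 11 fell with LPS (medians -0.06 and -0.63), where the counts with LPS lay near the shares of all genes. Map3k8, which couples Toll-like receptors to ERK, rose with each agent, by 2.36 ± 0.12 with 4-OHE1 (adjusted p = 6.42e-09) and 2.74 ± 0.12 with LPS (adjusted p = 3.88e-10).

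Of 10 kinases activated by MAP kinases, 4 rose and 4 fell with 4-OHE1 at 6 h, and 3 rose and 6 fell with LPS (medians -0.06 and -0.31). Over all genes the shares were 20.9% and 44.0% with 4-OHE1 and 16.1% and 68.1% with LPS, and the medians -0.21 and -0.61. Mapkapk2, the p38-activated kinase that stabilises cytokine mRNA, averaged 164 ± 10.9 FPKM with LPS+4-OHE1 and 612 ± 0.33 FPKM with LPS, a difference of -1.90 ± 0.06 (adjusted p = 5.62e-11). Of 10 genes known as outputs of ERK, 8 were tested, and 5 rose and 2 fell with 4-OHE1, against 2 and 4 with LPS (medians 1.86 and -1.02). LPS+4-OHE1 against LPS gave 7 higher and 1 lower (median 1.66), beside 42.7% and 25.3% of all genes (median 0.18). Fosl1, an AP-1 subunit, rose with 4-OHE1 by 3.63 ± 0.14 (adjusted p = 6.79e-10), to 69.6 ± 4.51 FPKM against 5.25 ± 1.13 FPKM in control libraries. Egr1 rose by 3.46 ± 0.16 (adjusted p = 2.55e-09). Etv5, like Dusp6 a target of growth factor signalling through ERK, fell with LPS by 3.22 ± 0.12 (adjusted p = 1.28e-10).

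Of 10 other feedback inhibitors of ERK, 7 were tested, and 2 rose and 4 fell with 4-OHE1 at 6 h, against 2 and 5 with LPS (medians -0.25 and -1.32). For this and the next 3 lists, the shares of all genes were 20.9% higher and 44.0% lower with 4-OHE1 and 16.1% higher and 68.1% lower with LPS, and the medians -0.21 and -0.61. The counts of feedback inhibitors that fell lay near those shares. Spry2, a Sprouty protein, averaged 11.0 ± 1.45 FPKM with LPS+4-OHE1 and 0.910 ± 0.24 FPKM with LPS, a difference of 3.03 ± 0.13 (adjusted p = 6.61e-10). Errfi1, an inhibitor of the EGF receptor, rose with 4-OHE1 by 3.02 ± 0.11 over control (adjusted p = 4.49e-10). Of 6 regulators of mRNA decay, 1 rose and 5 fell with 4-OHE1, and 1 rose and 4 fell with LPS (medians -0.50 and -0.94). Zfp36, tristetraprolin, which destabilises AU-rich messages including that of Dusp1, averaged 205 ± 6.06 FPKM with LPS+4-OHE1 and 459 ± 14.3 FPKM with LPS, a difference of -1.16 ± 0.05 (adjusted p = 7.35e-10). Of 8 MAP kinase phosphatases outside the superfamily 6 were tested, with 4 higher and 1 lower with 4-OHE1, and 1 higher and 4 lower with LPS (medians 0.26 and -0.21). Of 8 scaffold proteins of MAP kinases 4 were tested, of which 1 rose with 4-OHE1 and 3 fell with LPS (medians 0.18 and -0.34).

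The genes whose pattern was most like each member were found by the Pearson correlation of log2(FPKM + 0.5) over the 24 libraries, among 8325 genes that averaged 5 FPKM or more in 1 or more groups. These libraries fall into 8 groups of 3, so the values describe shared differences between groups. For Dusp1 they were the proteasome subunit gene Psmd11 (r = 0.986), Fbxo38 (r = 0.979) and the sulfiredoxin gene Srxn1 (r = 0.975). For Dusp2 the first was Nr4a3 (r = 0.973), an orphan nuclear receptor, and for Dusp16 it was the adenosine receptor gene Adora2a (r = 0.954), then Syk and Socs3 (r = 0.953 each). For Dusp5 they were Fosl1 (r = 0.981), Hsp90aa1 (r = 0.980) and Ddit3 (r = 0.971), a stress transcription factor. For Dusp8 the first was Mdm2 (r = 0.977), for Dusp10 Rcan1 (r = 0.986) and for Dusp14 the proteasome subunit gene Psmd4 (r = 0.949). For Dusp4 the metallothionein gene Mt1 and the iron exporter gene Slc40a1 came first (r = 0.964 each). For Dusp3 it was Tspan14 (r = 0.991) and for Dusp6 the D cyclin gene Ccnd3 (r = 0.982).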

How the data were processed

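Poly-A RNA libraries of mouse macrophages, 24 in all, were analysed from tables in which the deposited values are FPKM per gene over exons on mm10, made with HOMER per the file headers. STAR, DESeq2 and edgeR are also named in the submitters' processing notes, without versions. The authors' deposited comparison tables hold log2 fold changes and p-values of treated over control, and serve here only as an alternative. The members and all gene lists were chosen with earlier results of these data known. Each time was fitted with its 12 libraries in limma 3.58.1 (R 4.3.3) with a mean-variance trend, on log2(FPKM + 0.5), for genes of at least 1 FPKM in 3 libraries (11098 at 6 h and 11185 at 24 h). The times were compared in one fit of 24 libraries over 11220 genes, which set values across separately made tables. The text may name, per list and comparison, the 4 called genes with the largest differences, and per member the 3 genes most alike. FPKM steps gave whole reads within 0.1 read for 99.55% to 100.00% of values; the depth of LPS+4-OHE1 libraries was estimated from the worth of 1 read. Deviations of same-numbered libraries correlated at no more than 0.076 at 6 h and 0.272 at 24 h, and numbers were not used as pairs in the main fit. Alternatives were another pseudocount, filter, scaling, sample set, limma voom on recovered reads, a replicate block, the authors' tables and leaving out 1 library. The fit was tested on simulated data. For LPS against control at 6 h it recovered 58.2% of 1.5-fold and 92.5% of 2-fold changes. For the interaction at 6 h it recovered 10.4% and 71.6%, so an interaction that was not called may still be present. Sequences are from RefSeq (GRCm38.p6), and overlapping genes from GENCODE vM21.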

Additional observations from a re-analysis of the deposited data

Results flagged for a closer look

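For 13 pairs of gene and time the effect of LPS differed between cells with 4-OHE1 and cells without it, by limma's interaction term at an adjusted p under 0.05. At 6 h the interactions were -1.55 for Dusp1, -3.52 for Dusp2, 1.96 for Dusp3, -0.60 for Dusp4, 1.84 for Dusp6, 0.81 for Dusp10 and -3.14 for Dusp16. At 24 h they were 0.89 for Dusp3, 1.30 for Dusp4, -0.18 for Dusp6, 0.68 for Dusp8, 0.83 for Dusp10 and -1.56 for Dusp16. Dusp3, Dusp10 and Dusp16 kept their sign between the times, and Dusp4 and Dusp6 did not. The 24 h call of Dusp6 was lost without any 1 of 11 of the 12 libraries, and with the replicate block (limma, adjusted p = 0.0588). With voom the 6 h interaction of Dusp10 was not called (1.12, adjusted p = 0.0515).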

How the results depend on the processing

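The 10 genes in 14 comparisons were recomputed under each alternative. Of these values, 2123 without 1 library and 1179 others kept their call, and their direction where called. Values in opposite directions, at least one of them called, arose for 4 results, all under another scaling. For Dusp5 with LPS at 6 h (-0.34) median-of-ratios scaling gave 0.29, as it did with the replicate block, voom gave 0.28, and the value was 0.30 in the authors' deposited table. For Dusp3 in LPS+4-OHE1 against 4-OHE1 at 6 h (-0.20) they were 0.084 with scaling, alone and with the block, and 0.066 with voom. For Dusp6 with LPS at 24 h (-0.18) they were 0.18 with scaling, alone and with the block, 0.14 with voom and 0.17 in the authors' deposited table. For Dusp3 with both agents, 24 h against 6 h (0.02), they were -0.26 and -0.23. Among the values that kept their call, 58 differed in sign with neither value called.

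Among counts of genes, those lower with LPS were 2 with voom and 2 in the authors' deposited tables, at 6 h and at 24 h, in place of 4. For LPS+4-OHE1 against 4-OHE1 at 6 h, 2 were higher with scaling, 3 with voom and 3 with scaling and the block, in place of 0, and 1 was lower in place of 3. At 24 h voom gave 1 lower in place of 2. With the filter at 5 FPKM, which drops low genes, counts at 24 h were 4 higher with 4-OHE1, 4 higher for LPS+4-OHE1 against LPS and 2 higher in the interaction. For LPS+4-OHE1 against LPS at 24 h, 2 were lower in place of 1 with a pseudocount of 0.1, no filter, scaling, voom, and scaling with the block. In control libraries, 24 h against 6 h, 1 was higher in the fit of those libraries alone, in place of 2. The causes of the other shifts were not tested.

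The replicate block moved 1 count over 1.5 times, the lower interactions at 24 h, to 1 in place of 2 (Dusp6, adjusted p = 0.0588). Deviations of same-numbered libraries correlated at -0.142 to 0.272.

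Without 1 library, lower counts were 3 to 4 with LPS at 6 h and 2 to 5 for LPS+4-OHE1 against 4-OHE1 at 6 h, and 1 to 2 for the interaction at 24 h. Higher counts were 3 to 4 with LPS at 24 h and 5 to 6 for LPS+4-OHE1 against 4-OHE1 at 24 h. For 24 h against 6 h, the ranges were 0 to 3 higher in control, 2 to 3 higher and 4 to 5 lower with LPS, and 6 to 7 lower with 4-OHE1. All other counts stayed as reported. Few reads limit Dusp14, and Dusp8 and Dusp10 without 4-OHE1.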
